A study of Bos taurus with 90 samples.

Results

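The mural granulosa cells (MGCs) of small antral follicles were compared with those of large antral follicles in *Bos taurus*, in 9 small and 10 large follicles with 1 MGC library from each. These 19 libraries are all MGC libraries of small and large follicles that the study retained, out of 90 libraries of MGCs, cumulus cells (CCs) and single oocytes from 30 follicles. A subset of 3 small and 4 large follicles, called healthy, was compared as well, and the remaining 6 small and 6 large follicles are called other follicles. The small follicles measured 3.1 to 3.8 mm and the large ones 9.6 to 11.6 mm, with healthy follicles at 3.5 to 3.7 mm and 10.2 to 11.6 mm.

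The ovaries came from a slaughterhouse, the labels name no treatment, and age, breed and cycle day are not given in the sources used here. Sorting into healthy and other follicles was done by the study on the levels of marker genes in these same MGC libraries. Follicles are named S1 to S10 and L1 to L10 in the order of their labels, and S8 is the small follicle that the study removed. By the methods, follicles were collected in several batches, and the labels tie no follicle to a batch. Whether the compared groups differ in batch is therefore not known. Each follicle identifier begins with 3 digits whose meaning the labels do not give. The healthy small follicles S4, S5 and S6 share a prefix that no other follicle carries, whereas the healthy large follicles L5, L8, L9 and L10 carry 4 different prefixes, so in the healthy set the prefix and the stage cannot be told apart. The methods give a minimum number of animals below the number of follicles and the labels tie no follicle to an animal, so follicles may share an animal and the p-values measure the spread between follicles.

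MGCs form the layered wall of the antral follicle next to the basement membrane, while CCs surround the oocyte. They respond to follicle-stimulating hormone, convert androgens from the theca into oestradiol and divide as the antrum expands. In the cow only a few follicles of a wave grow to the size at which MGCs also acquire responsiveness to luteinizing hormone, and most others regress through atresia.

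The counts are listed by Ensembl identifier, and no table used here pairs these with gene symbols. Known MGC genes, pathway members and cell type markers were therefore not analysed here, the labelled cell type was not checked against its markers, and no sequence is given. The genes are described by their levels, by the follicles and cell types in which they were found and, for 4 of them, by their identifier. In such bulk libraries, a lower share of cells that express a gene and less RNA per cell cannot be told apart.

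Depth was similar in both stages. Total counts were 26739954 to 38374499 in small and 30589555 to 37626999 in large follicles, and 16773 to 18651 and 16211 to 17733 genes had a count. For these measures and for the percent of counts in the 10 most abundant genes, the difference of the means was within the spread of the libraries (two-sided exact permutation test, p = 0.458, 0.149 and 0.616, adjusted over the 3 measures 0.616, 0.447 and 0.616).

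The largest differences among the 19 libraries did not follow the stage. In a principal component analysis of the 2000 most variable genes, PC1 carried 37.5% of the variance, and small follicles spanned -47.0 to 37.2 on it against -58.4 to 89.2 for large follicles. L6, which is outside the healthy set, lay at the far end. Stage showed on PC2 (17.3%) and PC3 (15.5%). On PC2 the small follicles had a median of -26.2 (range -39.4 to 11.6) and the large ones of 14.2 (-15.8 to 44.6). On PC3 the medians were -16.7 (-61.6 to 8.5) and 17.6 (-7.9 to 29.6). On each component the ranges overlapped, but in the healthy subset the stages did not overlap on PC2, with -39.4 to -34.0 in small and 5.5 to 19.4 in large follicles. The genes were chosen for their variance over these same libraries, so this is a description.

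**Figure D1:**
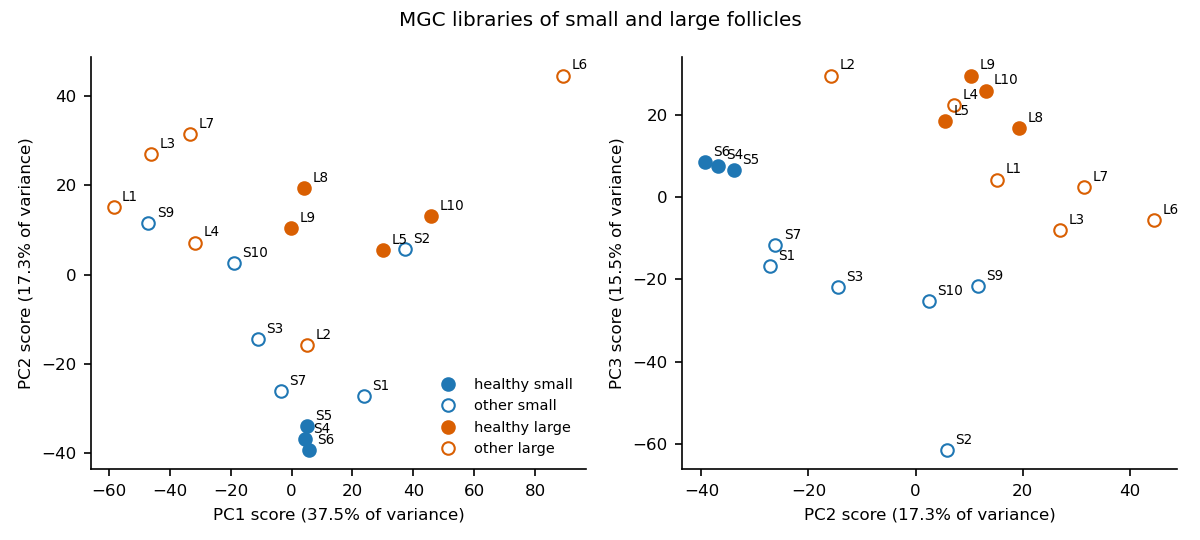
Principal component scores of the 19 MGC libraries, PC1 against PC2 on the left and PC2 against PC3 on the right, with 1 point per follicle (blue small, orange large, filled healthy, open other). L6 stands alone at 89.2 on PC1, the 3 healthy small follicles lie together near -37 on PC2, and small and large follicles are parted by PC2 and PC3 jointly rather than by PC1.

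Large follicles resembled one another more than they resembled small follicles. All 10 large follicles had a higher median Spearman's rho with the other large follicles than with the small ones, over all genes tested. Of the 9 small follicles, 4 (S1, S2, S3 and S7) were closer to their own stage, while S4, S5, S6, S9 and S10 were closer to large follicles. The median rho of a library with its own stage ran from 0.868 in L6 to 0.953 in S7. Per gene, the median SD of log2(CPM + 1) was 0.48 over the small and 0.44 over the large follicles. Among healthy follicles it was 0.19 over the 3 small follicles and 0.35 over the 4 large ones, and 77% of the genes were more variable in the large ones.

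From small to large follicles, 402 genes fell and 226 rose over all retained follicles. These differentially expressed genes (DEGs) have a fold change above 2 and an adjusted p under 0.05 in edgeR's quasi-likelihood test, and they make up 4.21% of the 14910 genes tested (2.7% lower, 1.52% higher). The median log2 fold change was 1.71 among the falling and 1.77 among the rising DEGs in absolute size, against a median absolute value of 0.32 over all genes tested. Changes above 4-fold were found in 158 falling and 87 rising DEGs, and above 16-fold in 33 and 19. The median over all genes tested was -0.01 on the log2 scale, so the bulk of genes lay close to 0.

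The genes that rose were more abundant than those that fell. The median level was 4.19 log2 CPM (counts scaled to the library total after TMM adjustment) for rising and 2.66 for falling DEGs. Over all genes tested it was 4.11. A mean CPM above 100 was reached by 45 of 226 rising and 19 of 402 falling DEGs, and by 1662 of the 14910 genes tested.

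Few DEGs separated the stages in every follicle. Among all genes tested, 29 (0.195%) were higher in all 10 large follicles than in all 9 small ones, and 46 (0.309%) were lower, of which 16 and 41 were DEGs. Most DEGs therefore had overlapping groups. A few follicles held the highest levels of many of them. Among the 226 rising DEGs, L6 had the highest level of the large follicles in 82 (36.3%, against 19.97% of all genes tested), L8 in 41 (18.1% against 7.92%) and L10 in 36 (15.9% against 11.1%). Among the 402 falling DEGs, S2 was the highest small follicle in 145 (36.1% against 20.7%), S1 in 80 (19.9% against 15.6%) and S3 in 72 (17.9% against 11.3%).

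The healthy subset gave more DEGs from fewer follicles. In 3 small and 4 large healthy follicles, 1294 genes changed, 733 lower and 561 higher in large follicles, which is 8.79% of the 14725 genes tested (4.98% and 3.81%). The biological coefficient of variation was 0.357 in this fit and 0.568 over all retained follicles. S4, S5 and S6, which share a prefix, formed the 3 most alike pairs of MGC libraries (Pearson's r 0.9906, 0.9896 and 0.9861). Whether they share an animal is not given, so they may not be independent, and the low spread may partly reflect this. That was not tested. The median log2 fold change of the DEGs was 1.70 for falling and 1.57 for rising genes in absolute size, against 0.48 over all genes tested. Among rising DEGs 85 had a mean CPM above 100, against 52 among falling ones. The groups did not overlap in 98.8% of the falling and 94.3% of the rising DEGs, but with so few follicles the same held for 14.1% of all genes tested in each direction. The count rests on each of the 3 healthy small follicles. It was 522 without S4, 671 without S5 and 439 without S6, and between 1095 and 1733 when 1 of the healthy large follicles was left out.

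**Figure D2:**
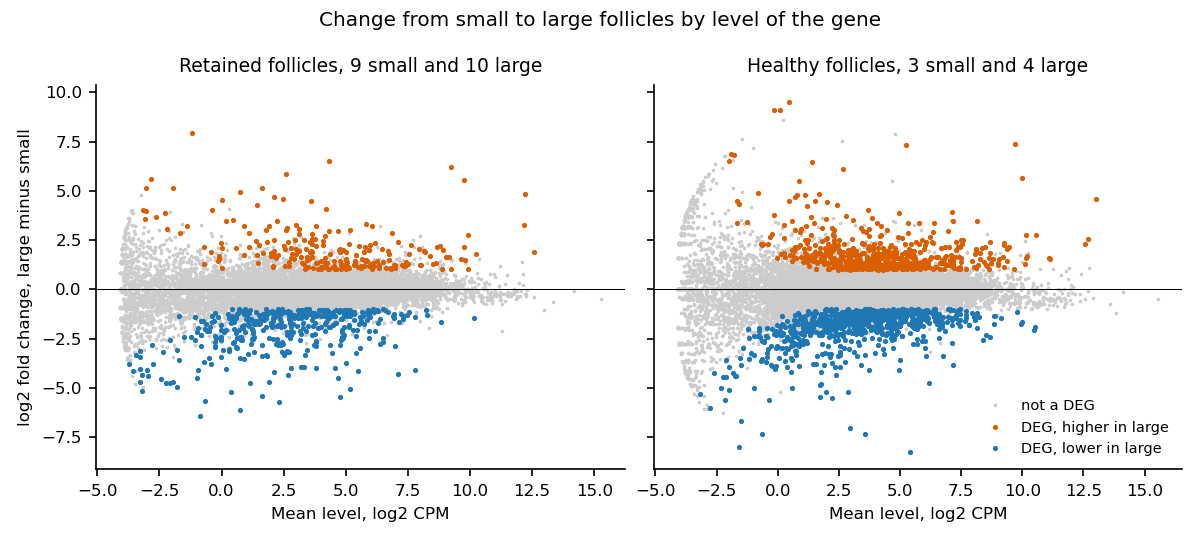
Log2 fold change from small to large follicles (y axis) against the mean level in log2 CPM (x axis) for every gene tested, over the retained follicles on the left and the healthy follicles on the right. Grey points are not DEGs, and orange and blue points are DEGs higher and lower in large follicles, 226 and 402 on the left and 561 and 733 on the right.

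The 12 other follicles were not used to find the healthy DEGs, though some share a prefix with a healthy large follicle (S2 and L2 with L10, S7 with L5, L1 with L9 and L3 with L8). They were fitted without the healthy follicles, in a fit that also held the 5 other medium follicles (17 libraries). Between the 6 small and 6 large ones, 81 of 14876 genes tested (0.545%) were DEGs. In large follicles 63 were lower (0.424%) and 18 higher (0.121%). At an unadjusted p under 0.05 with the same fold change there were 1182. The healthy DEGs mostly kept their direction there with smaller changes, though genes chosen for a large difference in one set are likely to show a smaller one in another. Of the 561 rising healthy DEGs, 426 (75.9%) were also higher in the large other follicles, with a median log2 difference of 0.53 against 1.57 in the healthy subset. Over all genes with a positive difference in the healthy subset, 58.1% had the same sign and the median was 0.09. Of the 733 falling healthy DEGs, 558 (76.1%) were also lower, by a median of 0.56 on the log2 scale, against 61.1% and 0.15 over all genes with a negative difference. Both thresholds were passed by 11 of the rising and 40 of the falling healthy DEGs in the other follicles alone, and by none in the opposite direction.

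In the reverse direction, all 18 rising and 61 of 63 falling DEGs of the other follicles had the same sign in the healthy subset, against 60.9% and 57.8% of all genes of that sign. Of them 11 and 40 were healthy DEGs, against 3.81% and 4.98% of all genes tested. Their median log2 difference in the healthy subset was 1.96 for the rising and 1.76 for the falling genes in absolute size, against 2.06 and 2.58 in the other follicles themselves.

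**Figure D3:**
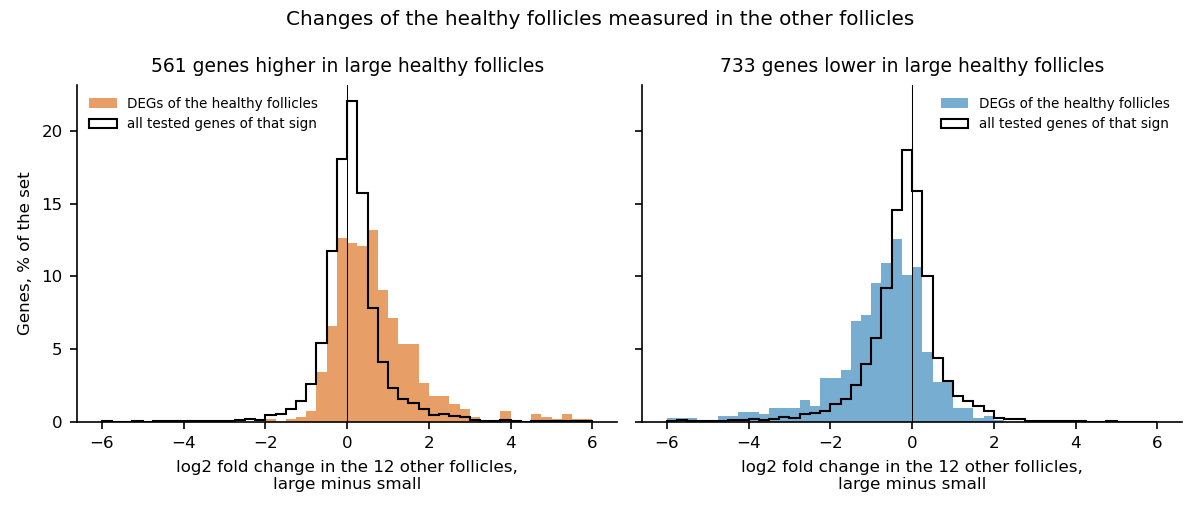
Percent of genes (y axis) by log2 fold change from small to large in the 12 other follicles (x axis, values beyond 6 placed at the edge). Filled bars are the DEGs of the healthy follicles, rising on the left and falling on the right, and the black outline is all genes tested with that sign in the healthy follicles. Both filled distributions are shifted in the direction of the healthy difference, with medians of 0.53 and 0.56 in size, and both extend across 0.

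The difference between healthy and other follicles was tested directly. With the interaction of stage and health over the 19 libraries, 0 of 14871 genes (0%) passed the threshold in edgeR, the lowest adjusted p being 0.239. At an unadjusted p under 0.05, 965 genes had a difference above 2-fold, and DESeq2 called 41. On simulated counts, DESeq2 called 24 unchanged genes for the interaction, against 1 with edgeR. The typical SE of the difference between healthy and other follicles was 0.58 on the log2 scale. Median absolute changes were 0.48 in the healthy and 0.36 in the other follicles over all genes tested. The counts of 1294 and 81 DEGs therefore do not show that the change from small to large differed between the follicle sets.

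Follicles were then placed on one scale, by the mean log2 level of the rising minus that of the falling healthy DEGs, with the mean of the healthy small follicles at 0 and that of the healthy large ones at 1. The healthy follicles set this scale, so their own places, -0.05 to 0.06 and 0.91 to 1.04, are a description. Genes chosen for a large healthy difference are likely to differ less in follicles left out of that choice. This favours places between 0 and 1 for the remaining follicles, so an intermediate place alone does not show an intermediate state. The 6 other small follicles lay at 0.13 to 0.45 (median 0.38), all nearer to the healthy small than to the healthy large ones. S7 at 0.13 was the closest to the healthy small follicles, and S1, S2, S3, S9 and S10 lay between 0.32 and 0.45. The 6 other large follicles ran from 0.42 to 1.33 (median 0.59), and their low end overlapped the other small follicles.

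Among the 6 other large follicles the place rose with diameter, which is given as a description. L1 at 9.6 mm lay at 0.42, L2 and L3 at 10.0 mm at 0.50 and 0.53, and L4 at 10.2 mm at 0.65. Both at 11.2 mm were higher, L7 at 0.89 and L6 at 1.33. All 4 healthy large follicles measured 10.2 mm or more, and L5, the smallest of them at 10.2 mm, lay at 0.91, above L4 of the same diameter. Healthy large follicles were thus in part also the wider ones. In small follicles no such order was seen, with 0.37 at 3.1 mm, 0.13 at 3.7 mm and both 0.41 and 0.45 at 3.8 mm.

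The rising and falling genes did not always place a follicle alike. S2 lay at 0.14 by the rising but at 0.66 by the falling genes. The reverse was found in S1, S3 and S9, which share a prefix, at 0.52, 0.51 and 0.58 by the rising and 0.22, 0.14 and 0.32 by the falling genes. L6 was beyond the healthy large follicles by both, at 1.18 and 1.48.

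**Figure D4:**
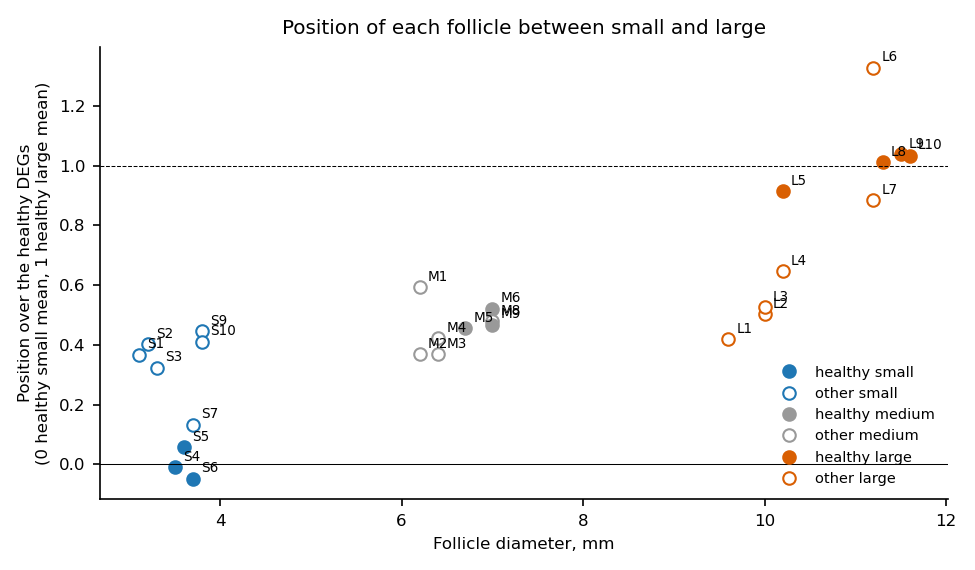
Place of each retained follicle between the healthy small (0) and healthy large (1) means over the 1294 healthy DEGs (y axis, no unit) against its diameter in mm (x axis), with 1 labelled point per follicle, filled for healthy. Other small follicles lie at 0.13 to 0.45, medium follicles at 0.37 to 0.59, and the other large follicles climb from 0.42 at 9.6 mm to 0.89 and 1.33 at 11.2 mm.

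Medium follicles, at 6.2 to 7.0 mm, lay between the healthy small and healthy large follicles. The 3 healthy ones were placed at 0.46 to 0.52 and the 5 other ones at 0.37 to 0.59. The latter range overlapped those of the other small (0.13 to 0.45) and other large follicles (0.42 to 1.33). Gene by gene over all retained follicles, 92.0% of rising and 87.8% of falling DEGs had a medium mean between the small and large means, against 41.9% of all genes tested. A choice of genes that differ between small and large follicles favours this. With small at 0 and large at 1, the median place of the medium mean was 0.41 for rising and 0.66 for falling DEGs, and in the healthy subset 0.43 and 0.61. The medium mean lay beyond the large mean in 45 of 402 falling (11.2%) and 4 of 226 rising DEGs (1.77%), against 31.1% of all genes tested. Over all genes tested this median was 0.57 for the retained and 0.43 for the healthy follicles, the latter the same as for the rising healthy DEGs.

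Identifier prefixes were compared within themselves where they hold both stages. One prefix holds S1, S3 and S9 against L6, none of which is in the healthy set. Of the 561 rising healthy DEGs, 378 (67.4%) were higher in L6 than in the mean of the 3 small follicles, with a median log2 difference of 0.67, and 655 of the 733 falling ones (89.4%) were lower, with a median of 1.504. Over all genes of the same sign in the healthy subset these shares were 51.2% and 59.9%. In a second prefix, S2 against L2 gave 73.6% for rising (51.5% over all genes) but 45.0% for falling DEGs (51.9% over all genes), whose median difference of -0.25 ran opposite to the healthy fall. With 1 follicle on at least 1 side, these differences have no replicate check.

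With the prefix as a block in the fit over the small and large libraries, 1041 genes were DEGs. Of these 503 were higher and 538 lower, a share of 48.3% rising. In that fit only prefixes that hold both stages inform the difference between stages. These are 3 prefixes with 5 small and 4 large follicles, L6 and L10 among them. The remaining libraries add to the estimate of the spread. Values of single genes with the block, given below, rest on the same 9 follicles. The fit over the small and large libraries without the block gave 556 DEGs, of which 36.7% rose. Without S1, S3 and S9 there were 1065, 598 higher and 467 lower. Over the retained follicles, the excess of falling over rising genes was thus not seen without these 3 follicles, which were left out after seeing the data. The healthy subset, which holds none of them, had 733 falling and 561 rising DEGs.

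DEGs that fell and rose differed in the cell type in which they were most abundant. By the mean CPM over retained follicles, 50% of rising DEGs were highest in MGCs, against 35.03% of all genes tested. CCs held the highest level of 20.4% (21.3% of all genes) and oocytes that of 29.6% (43.6%). Of the falling DEGs, 29.6% were highest in MGCs and 40.0% in CCs. Genes with more than 4 times the MGC level in CCs made up 89 of the 402 falling DEGs (22.1%) and 5 of the 226 rising ones (2.21%), against 7.69% of all genes tested. Among healthy DEGs they were 96 of 733 (13.1%) and 6 of 561 (1.07%), against 7.04%. Genes with more than 4 times the level of both other cell types in MGCs made up 9.20% of the falling and 17.7% of the rising DEGs of the retained follicles, against 8.60% of the genes tested. For the healthy DEGs this order was turned, with 19.7% of the falling and 14.1% of the rising DEGs against 8.71%. MGC libraries were bulk libraries and those of CCs and oocytes were amplified from few cells, so the levels also differ by protocol.

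RNA of other cells was examined by genes that are high in them and close to absent in MGCs. The 9 genes with a mean CPM above 100 in CCs, more than 50 times their MGC level, and more than 4 times their oocyte level sum to 18201 CPM in CCs. In MGCs they sum to 92.2 to 354 CPM (median 229) in small and 106 to 367 CPM (median 213) in large follicles. These ranges overlapped almost wholly. In the healthy follicles the medians were 317 CPM in small and 261 CPM in large ones. Of the 9 genes, 1 was a DEG over the retained follicles and 2 in the healthy subset, where 4.21% and 8.79% of all genes were. The 267 genes chosen in the same way for oocytes sum to 179369 CPM there, and to 459 to 722 CPM in the MGCs of small and 425 to 771 CPM in those of large follicles. Between the healthy follicles their sum did not overlap between stages, at 667 to 722 CPM in small and 425 to 544 CPM in large follicles. Of the 267 genes, 14 were healthy DEGs, where 8.79% of all genes tested were. The share was 3.64% among genes with a mean CPM under 1, so it also depends on the level. Over the retained follicles 7 of the 267 were DEGs (4.21% of all genes). The part of oocyte RNA in the healthy DEGs was not tested.

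Changes in MGCs were set beside those of CCs and oocytes from the same follicles, which are separate libraries. Between small and large retained follicles, 3.34% of 15109 genes were DEGs in CCs, 189 higher and 316 lower in large follicles, and 225 (1.51% of 14936) were DEGs in oocytes. Of the 226 genes that rose in MGCs, 169 (74.8%) were also higher in the CCs of large follicles, with a median log2 difference of 0.53, against 57.6% and 0.14 over all genes with a positive difference in MGCs. All 14 of them that were DEGs in CCs rose there too. Of the 402 genes that fell in MGCs, 207 (51.5%) were lower in CCs, against 46.2% of all genes with a negative difference in MGCs. In CCs 14 of these were DEGs, 9 lower and 5 higher in large follicles. In oocytes 48.0% of the rising and 46.9% of the falling MGC DEGs shared the sign, against 51.7% and 45.8%. In the healthy follicles, 12 genes (0.0801%) were DEGs in CCs, all higher in large follicles, and 1 (0.00678%) in oocytes.

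The genes with the largest fall and rise at a mean log2 CPM of at least 3 are described in each follicle. ENSBTAG00000002333 had the largest fall over the retained follicles. Its level was 10.9 CPM in the lowest, 34.2 CPM in the median and 279 CPM in the highest of the 9 small follicles, and 0.283, 1.14 and 4.13 CPM in the 10 large ones. Every small follicle was above every large one. The log2 fold change was -5.45 (SE 0.63, adjusted p = 8.6e-06 from edgeR). It was -4.85 without S2 and -7.49 with the prefix as a block (adjusted p = 1e-05 and 0.002 from edgeR).

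The fall of ENSBTAG00000002333 was found in both follicle sets. In the healthy subset S4, S5 and S6 had 27.9, 20.4 and 20.5 CPM, and L5, L8, L9 and L10 had 0.283, 1.28, 0.451 and 0.479 CPM. There the log2 fold change was -5.22 (SE 0.49, adjusted p = 0.00043 from edgeR), and the other follicles gave -5.31 (SE 0.69, adjusted p = 0.0027 from edgeR). All 8 medium follicles lay between 1.84 and 6.11 CPM, below every small follicle. Within prefixes, the mean was 35.8 CPM against 0.424 CPM for S1, S3 and S9 against L6. It was 279 CPM in S2 against 1.27 CPM in the mean of L2 and L10, and 118 CPM in S7 against 0.283 CPM in L5. In CCs the gene stayed abundant, with a median of 234 CPM in small and 114 CPM in large follicles, and in oocytes the medians were 1.17 and 0.499 CPM. In large follicles its CC median was thus far above the MGC median of 1.14 CPM.

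ENSBTAG00000008452 had the largest fall in the healthy subset. S4, S5 and S6 had 182, 37.5 and 79.8 CPM, while L5 had 0.396, L8 0.765 and L10 0.137 CPM and L9 had no count. The log2 fold change was -8.24 (SE 0.89, adjusted p = 0.00064 from edgeR), with -7.46 without S4 and -9.09 without L8. The 3 healthy medium follicles kept the gene at 31.8 to 97.4 CPM, whereas the 5 other medium follicles had 0 to 8.79 CPM.

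Outside the healthy subset ENSBTAG00000008452 varied widely. The other small follicles ran from 0 in S10 and 1.67 CPM in S9 to 412 CPM in S1 (median 11.02 CPM), and the other large ones from 0 to 21.4 CPM in L6. The groups overlapped, and the log2 fold change in the other follicles was -4.31 (SE 2.02, adjusted p = 0.319 from edgeR). Over all retained follicles it was -5.05 (SE 1.53, adjusted p = 0.0435 from edgeR), and this passed the threshold in 5 of the 19 fits that left out 1 follicle. With the prefix as a block it was -3.40 (adjusted p = 0.184 from edgeR). Within prefixes, the log2 difference was -0.12 for S1, S3 and S9 against L6, -2.36 for S2 against L2 and L10, and -4.54 for S7 against L5. The call was lost without S1 (-4.11, adjusted p = 0.101 from edgeR), S4, S5, S6 or S7 and without any large follicle other than L6, with an adjusted p of at most 0.101. Without L6 it was -7.48 (adjusted p = 0.0063 from edgeR). In CCs it was abundant at every stage, with a median of 881 CPM in small and 1391 CPM in large follicles.

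ENSBTAG00000014890 had the largest rise in the healthy subset, though L10 and L6 dominated its levels. S4, S5 and S6 had 17.3, 8.74 and 10.4 CPM, and L8, L9, L5 and L10 had 85.3, 238, 615 and 7373 CPM. Every healthy large follicle was above every healthy small one, and the log2 fold change was 7.37 (SE 1.58, adjusted p = 0.0146 from edgeR). The healthy medium follicles, at 174 to 633 CPM, were already above all small follicles, and the 5 other medium follicles had 0 to 58.1 CPM. The call was lost without S4, S5 or S6 (adjusted p = 0.0626, 0.0641 and 0.0763 from edgeR). Without L10 the log2 fold change was 4.65 (adjusted p = 0.0028 from edgeR).

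In the other follicles the level of ENSBTAG00000014890 was split. L6 had 6314 CPM and L2 had 186 CPM, but L1 had 0.115 CPM and L3 no count, and among the other small follicles S1 had 130 CPM and S10 0.0543 CPM. The log2 fold change was 5.44 (SE 2.52, adjusted p = 0.314 from edgeR), and over all retained follicles it was 6.21 (SE 1.93, adjusted p = 0.0481 from edgeR). The latter was lost in 13 of 19 fits without 1 follicle, namely each small one except S1, and L5, L6, L8, L9 and L10, with an adjusted p between 0.0553 and 0.0836. Its log2 fold change was 5.56 without L6, 5.43 without L10 and 7.88 without S1. With the prefix as a block it was 8.14 (adjusted p = 0.0529 from edgeR). In CCs and oocytes no such rise was seen in the levels, with CC medians of 14.6 CPM in small and 14.5 CPM in large follicles and oocyte medians of 4.54 and 3.66 CPM.

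ENSBTAG00000007239 had the largest rise over the retained follicles, and its high levels were also those of L6 and L10. Only through L6 and L10 did its mean level reach the minimum of 3 log2 CPM, so it was named through them. The small follicles had 0.0253 to 3.53 CPM (median 0.166 CPM) and the large ones 0.651 to 302 CPM (median 1.998 CPM). L10 reached 302 CPM, L6 193 CPM and L7 11.8 CPM, while the remaining large follicles were at 0.651 to 2.79 CPM. S10, at 3.53 CPM, was above 7 of the 10 large follicles, and all other small follicles had 0.682 CPM or less. The log2 fold change was 6.49 (SE 1.40, adjusted p = 0.0052 from edgeR). This change passed the threshold in all 19 fits without 1 follicle, each of which kept L6, L10 or both. It was 5.45 without L10, 8.05 without S10 and 9.32 with the prefix as a block (adjusted p = 0.0131, 0.0021 and 0.01 from edgeR). In the healthy subset it was 7.89 (SE 2.41, adjusted p = 0.0536 from edgeR) and, without L10, 1.89 and, without S6, 9.14 (adjusted p = 0.158 and 0.15 from edgeR). The median in CCs of both stages and in oocytes was 0 CPM.

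**Figure D5:**
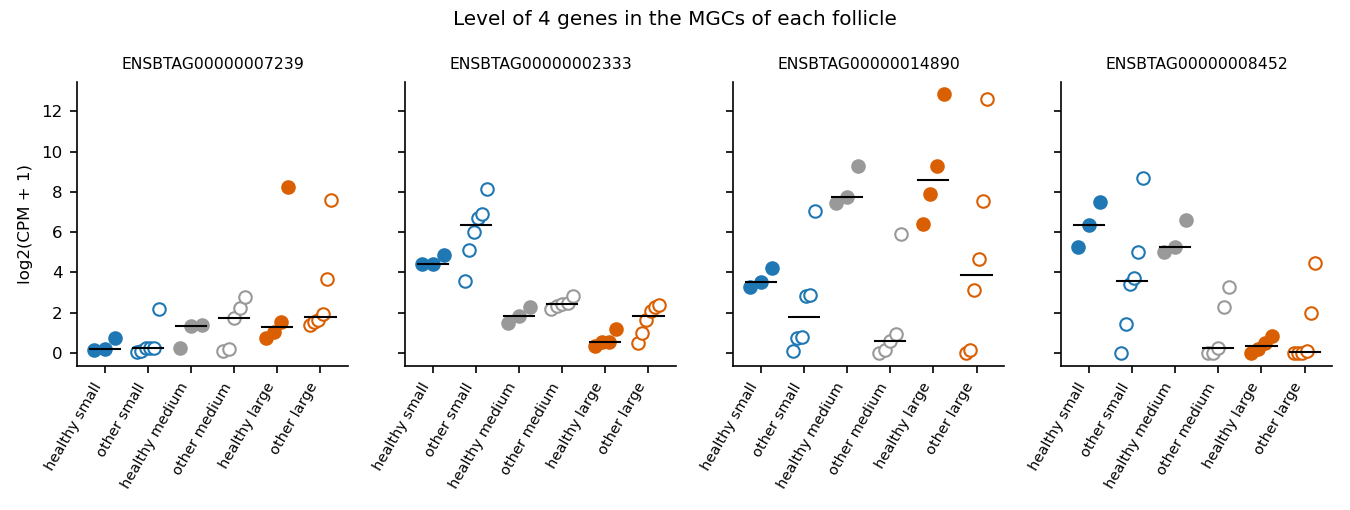
Level of the 4 genes in log2(CPM + 1) (y axis) in the MGCs of each retained follicle, grouped by stage and health (x axis, 3, 6, 3, 5, 4 and 6 follicles), with 1 point per follicle and a line at the median. ENSBTAG00000002333 is higher in each small follicle than in any large one, while the high values of ENSBTAG00000007239 and ENSBTAG00000014890 in large follicles come from L6 and L10, at 193 and 302 CPM and at 6314 and 7373 CPM.

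L6 and L10, which had the highest levels of both rising genes, differ in set and prefix. L10 is healthy, at 11.6 mm, and L6 is one of the other follicles, at 11.2 mm and with the prefix of S1, S3 and S9. L8 and L9, of 11.3 and 11.5 mm, had 85.3 and 238 CPM of ENSBTAG00000014890, so diameter alone did not order its levels.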

How the data were processed

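MGCs, CCs and single oocytes of 30 follicles were sequenced. After trimming and alignment to ARS-UCD1.2, the authors counted exonic reads with featureCounts (Subread) and deposited raw counts per gene. The submitters' processing notes name HISAT2 2.2.1 and the methods another aligner, STAR. It is not settled here which of them was used. The MGC RNA was extracted in bulk. Counts are of reads, not molecules, and reads shared by near-identical genes cannot be assigned.

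Stages came from the labels, and the removed follicles and the healthy set from the study (S9 and S10 are numbered 8 and 9 there). The members, gene lists and tests were chosen with earlier results of these data known. All 90 columns were read, with 27270 genes. None of the identifiers matched a symbol in the RefSeq table used, so the planned gene lists and cell type markers were not analysed here. Named genes are those with the largest rise and fall among the DEGs of each comparison at a mean log2 CPM of at least 3.

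The filter kept 15134 genes, those whose CPM exceeded 1 in 15 or more retained libraries of a cell type. edgeR 4.0.16 in R 4.3.3 was used with TMM, glmQLFit and glmQLFTest in one fit over the 3 stages (27 retained, 10 healthy or 17 other libraries). Benjamini-Hochberg adjustment was made over all genes tested. The interaction was fitted on the 19 small and large libraries. CC fits left out the pool of S7, which has counts for few genes. Printed CPM of MGCs are TMM-scaled over the 27 libraries, and those of CCs and oocytes are scaled to the total count. Mean levels in log2 CPM are those that edgeR returned for each fit, and other log2 levels have a pseudocount of 1. DESeq2 1.42.0, other filters, size factors, libraries and the prefix block were alternatives. The fits were tested on simulated data. Of 200 genes changed 4-fold, edgeR recovered 173 over the retained follicles, 181 over the healthy follicles and 58 for the interaction. The interaction test can thus miss most differences of that size. The changed genes were drawn only from those above a minimum mean CPM, so the recovery does not cover the least abundant genes. Libraries were simulated as independent. Over the healthy follicles DESeq2 recovered 193 and called 45 unchanged genes, against 6 unchanged genes with edgeR. Descriptions used Python 3.11.15, numpy 2.4.6, scipy 1.17.1, pandas 2.3.3 and matplotlib 3.10.9.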

Additional observations from a re-analysis of the deposited data

Results flagged for a closer look

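Among 21 sets of values examined for a follicle far from the rest (4 genes and 3 library measures in small, large and healthy large follicles), 3 held one. The usual rate of about 1 in 20 does not apply here. The genes were chosen for large changes in these same libraries, and the healthy large follicles are part of the large ones. All 3 were sets of the chosen genes. S10 stood above the other 8 small follicles for ENSBTAG00000007239 at 3.53 CPM. L10 stood above the other healthy large follicles for the same gene at 302 CPM. L6 stood above the other 9 large follicles for ENSBTAG00000008452 at 21.4 CPM.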

How the results depend on the processing

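Follicles carry no replicate numbers in the labels and were paired by none, and the identifier prefix was the only block used. Over the retained follicles the DEGs (226 higher and 402 lower in large follicles) became 1355 (526 and 829) at an unadjusted p. With the prefix as a block there were 1041 DEGs, 503 of them higher, by a difference that rests on the 9 follicles of prefixes found in both stages. Without S1, S3 and S9 there were 1065, 598 of them higher, and without L6 of the same prefix as well those higher were 515. The other follicles alone gave 81 (18 and 63), and follicles of prefixes found in both stages, with the block, 211 (120 and 91). Leaving out S1, S3 and S9 or their whole prefix, taking the other follicles alone and taking shared prefixes alone were chosen after seeing the data. Leaving out 1 follicle gave 468 to 714 DEGs (151 to 262 higher, 317 to 452 lower). In the healthy subset the 1294 DEGs became 2239 (977 and 1262) at an unadjusted p, and DESeq2 called 857 higher and 1861 in all. Leaving out 1 follicle gave 439 to 1733 (152 to 807 higher, 287 to 926 lower). The interaction gave 965 (573 and 392) at an unadjusted p and 41 (29 and 12) by DESeq2. It gave 0 in edgeR, and 0 or 1 with 1 follicle left out, the 1 (lower) without L6. Size factors, filters and the small and large libraries alone kept the counts of both comparisons within 1.5 times. Of 175 values of the 4 genes under alternatives, 128 stayed on their side of the threshold, 43 lost and 4 gained the call, and 0 changed sign. ENSBTAG00000002333 passed in all 31 alternatives over the retained and all 13 over the healthy follicles. The causes were not tested. The fold change of ENSBTAG00000008452, with no count in L3, L4, L7 and L9, is limited by depth.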
